A study of Mus musculus with 24 samples.

Results

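The cerebellum of mice that lack Aptx was compared with that of control mice, using the 2 Aptx mutant and 4 control libraries among the 14 cerebellum libraries of a series of 24. The members were chosen by label alone. The Aptx mutant carries the Aptx-/- genotype in every cell from the germ line. The other mutants, used here for comparison, are 2 libraries of the Atm mutant (Atm Nes-cre), in which a conditional Atm allele is deleted in the nervous system by Nestin-cre (the genotype in the labels, where the study's text also writes Atm-/-), and 6 libraries of the double mutant (Atm Nes-cre; Aptx-/-). Animals were of either sex and 10 to 12 months old. The study describes separate animals and the labels name only samples, so p-values measure the spread between these samples. The names of the control libraries hold a series code that differs from the one shared by every mutant, so in any comparison with the control genotype and library series cannot be told apart. The Aptx mutant was therefore also set against the Atm and double mutants, whose code it shares. The labels call the control only that, and the study's text calls it wild-type.

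Aptx encodes aprataxin, which removes adenylate groups from the ends of broken DNA left by abortive ligation, so that single-strand breaks can be sealed. Atm encodes the kinase that signals double-strand breaks. Mutations in either gene cause recessive ataxias with cerebellar atrophy in humans.

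Values are FPKM, fragments per kilobase of gene scaled to the size of the library, as deposited. The libraries carried 12437 to 12599 genes at 1 FPKM or more in the Aptx mutant and 12515 to 12691 in the control. Purkinje cell genes such as Calb1 (189.6 and 192 FPKM in the Aptx mutant) and the granule neuron gene Gabra6 (259 and 308 FPKM) were high, and the forebrain gene Tbr1 was at most 0.133 FPKM in the 6 libraries. Y-linked transcripts separated the Aptx libraries. Ddx3y stood at 26.5 FPKM in Aptx mutant 1 and at 0.034 in Aptx mutant 2, and at 0.042 or less in all 4 controls. The correlation of log2 values across the tested genes was 0.991 between the Aptx libraries, 0.965 to 0.971 between Aptx mutant and control, and 0.986 to 0.989 between Aptx and Atm mutant. A single principal component, with 40.4% of the variance, placed the 4 controls at 21.8 to 26.1 and all 10 mutant libraries at -15.3 to -3.83.

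Aptx itself (chromosome 4, 40629415 to 40650227, minus strand, mm9) was still read in the mutants. It stood at 2.77 and 2.25 FPKM in the Aptx mutant against 3.59, 3.17, 3.21 and 3.11 in the control and 3.39 and 3.67 in the Atm mutant. The 6 double mutants lay between 2.09 and 2.86. Both Aptx libraries were below every control, but the fall of 0.29 on the log2 scale (SE 0.11) was not called (adjusted p = 0.0784, limma). These values count the whole gene, and which exons the reads came from was not analysed here. The 5 measured genes on either side of Aptx were not called against the control or the Atm mutant, and their log2 fold changes against the control ran from -0.07 to 0.20. Of the 101 measured genes within 50 positions, 14 were called against the control or the Atm mutant (13.9%), against 16.1% of all genes called against the control alone. Of these 14, the gene called against the Atm mutant was Unc13b. Unc13b, which primes synaptic vesicles for release, stood at 6.86 and 5.58 FPKM in the Aptx mutant, 3.65 to 4.13 in the control and 2.82 and 3.46 in the Atm mutant. It was higher against both (log2 fold change 0.56 and 0.80, adjusted p = 0.0087 and 0.0349). In the double mutant it ran from 3.99 to 5.95 FPKM.

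Against the control, 2086 of 12982 genes were called in the Aptx mutant, 16.1% of those tested. Of these, 1387 were higher (10.7%) and 699 were lower (5.38%), and 146 (1.12%) also changed by over 1 on the log2 scale. Both Aptx libraries lay above all 4 controls in 28.1% of genes tested and below all 4 in 13.5%. The median gene was 0.06 higher on the log2 scale. Of the calls, 66.5% were higher, a share that was 49.7% after quantile normalization and 42.4% after median rescaling, so the balance of directions depended on the scaling. The number of calls also rested on both Aptx libraries. It was 585 without Aptx mutant 1 and 470 without Aptx mutant 2. It was 1383 without control 3.

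Against the Atm mutant 21 genes were called (0.162%), and against the double mutant 18 (0.139%). Of these, 10 (0.077%) and 6 (0.0462%) also changed by over 1 on the log2 scale. The 3 comparisons share the Aptx libraries.

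Of the 5 largest increases in the Aptx mutant, 4 came from gene models whose sequence repeats itself at the same unit length. The other, Gm10801, matched itself at no more than 37.3% of bases. The repeated models were found among 67 uncharacterised or copy-like models past both thresholds, of which 47 were higher. In 10 of the 47, the genome sequence matched itself best at a shift of 234 bases, with 65.0% (Gm10720) to 95.8% of bases equal. Units of that length make up the mouse major satellite, the tandem repeat that fills pericentromeric heterochromatin. The models were not aligned to it or to each other. Of the 10 models, 9 lie near the start of chromosome 9 and Gm10800 lies on chromosome 2. Successive units are shown from Gm10106 (chr9:3032155-3032388 and chr9:3032389-3032622, plus strand, mm9) as an example of such a repeat. No reads were examined. The 234-base units differ at 6 positions, in capitals in the later one.

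Gm10106 unit 1: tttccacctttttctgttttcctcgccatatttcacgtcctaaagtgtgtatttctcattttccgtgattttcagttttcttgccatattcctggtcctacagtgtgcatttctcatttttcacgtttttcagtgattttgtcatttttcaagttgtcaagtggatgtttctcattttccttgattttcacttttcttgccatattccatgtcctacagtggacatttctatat
Gm10106 unit 2: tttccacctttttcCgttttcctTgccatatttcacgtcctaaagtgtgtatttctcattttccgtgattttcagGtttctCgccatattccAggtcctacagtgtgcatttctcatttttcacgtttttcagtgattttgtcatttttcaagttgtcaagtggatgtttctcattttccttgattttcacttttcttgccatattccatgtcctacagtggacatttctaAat

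Gm10800, which matched itself at 67.2% of bases, stood at 310.2 and 437 FPKM in the Aptx mutant and at 13.04, 9.89, 13.01 and 17.9 in the control (log2 fold change 4.70). Summed over the 10 models the level was 412 and 590 FPKM in the Aptx mutant and 18.8, 15.4, 19.0 and 24.7 in the control, a ratio of means of 25.7. The groups did not overlap. Each of the 10 was called, with log2 fold changes from 1.10 to 4.70. The same sum was 376 and 368 FPKM in the Atm mutant and 546 to 1157 in the double mutant, and 0 of the 10 models were called in the Aptx mutant against either, by limma. All 10 mutant libraries were thus above all 4 controls, and genotype and library series cannot be told apart here.

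A further 24 of the 47 higher models matched a named gene at 92.0% identity or more, and 8 of these matched Gapdh, the glycolytic enzyme often used as a reference. The 24 models rose by 1.01 to 2.21 on the log2 scale. Their 17 named genes changed by -2.39 to 1.08, 12 of them with a value below 0, with 1 called higher and 5 called lower. A stretch of Gapdh (chr6:125112876-125112935, minus strand) is shown beside its copy Gm12033 (chr11:20235513-20235572, minus strand) because it shows how close such pairs are. The capital marks the 1 base that differs in 60.

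Gapdh: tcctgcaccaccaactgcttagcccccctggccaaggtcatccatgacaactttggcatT
Gm12033: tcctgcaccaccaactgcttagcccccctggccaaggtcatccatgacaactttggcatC

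Gapdh stood at 189 and 188 FPKM in the Aptx mutant and at 223, 292, 229 and 199.5 in the control, and was not called (log2 fold change -0.31, adjusted p = 0.0757). The 8 copies, chosen because they rose past both thresholds, together stood at 210.1 and 205 FPKM against 60.8, 74.3, 61.7 and 56.8. The sum of Gapdh and these copies was 399 and 393 against 283, 366, 291 and 256 FPKM. The ratio of means was thus 0.80 for the gene, 3.28 for the copies and 1.32 for the sum. Copies not past the thresholds were not searched. The values of copies and sum thus follow in part from that choice. Rps3a, a protein of the small ribosomal subunit, and its copy Gm9000 moved in opposite directions. Rps3a fell from 141 to 307 FPKM in the control to 35.5 and 35.0, and Gm9000 rose from 8.49 to 48.7 FPKM to 87.2 and 90.8. Their sum stood at 123 and 126 FPKM against 182 to 315, a ratio of means of 0.532, so the rise of the copy was smaller than the fall of the gene. Values of genes with such copies are uncertain, since reads that match both can be split between them.

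**Figure D1:**
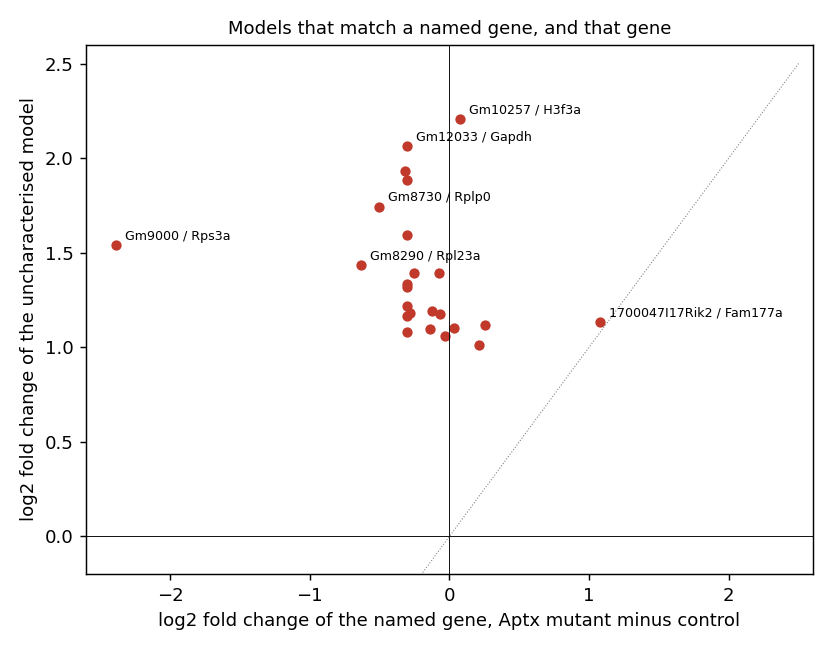
Each point is 1 of the 24 higher uncharacterised models that match a named gene. The x axis is the log2 fold change of the named gene and the y axis that of the model, Aptx mutant minus control, on log2(FPKM + 1), and the dotted line marks equal change. All points lie above the line, that of 1700047I17Rik2 with Fam177a close to it, and Gm9000 with Rps3a lies furthest left, at -2.39. The models were chosen because they rose, which favours that side of the line.

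Among named genes past both thresholds with the groups apart, the 12 lowest and 12 highest were examined. The 12 lowest included 3 ribosomal protein genes (Rpl29, Rpl34 and Rps3a), 3 pituitary hormone genes and 2 members of the brain stem and midbrain list (Nts and Lhx9). Rpl29 (chromosome 9, 106331785 to 106333899), a protein of the large ribosomal subunit, had the narrowest control range relative to its change among these 3. It stood at 7.25 and 8.34 FPKM in the Aptx mutant and at 78.3, 77.9, 78.5 and 80.9 in the control. The fall of 3.19 (SE 0.14) was called at adjusted p = 7.32e-09 and under all 15 alternatives. Rpl34 stood at 11.9 and 13.3 FPKM against 117, 54.8, 125 and 74.2 (adjusted p = 0.0275), a call lost without either Aptx library, without control 1, without control 3, with no filter on low values and with the Ddx3y covariate, at an adjusted p of up to 0.149. Over the double mutants, Rpl34 was low in replicates 1 and 5 (15.2 and 11.3 FPKM), 38.3 in replicate 6 and 92.9 to 111 in replicates 2, 3 and 4.

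The pituitary hormone genes were high in controls 2 and 4. Prl, which encodes prolactin, stood at 0.04 and 0.00 FPKM in the Aptx mutant and at 5.82, 53.4, 6.91 and 116 in the control (log2 fold change -4.57, SE 0.92). Gh, growth hormone, stood at 0.08 and 0.04 FPKM against 1.34, 4.07, 1.43 and 18.7. Pomc, the precursor of corticotropin, stood at 0.575 and 0.98 FPKM against 2.42, 10.7, 1.54 and 18.9. Of the 11 pituitary genes listed, these 3 passed the filter on low values, and all 3 did so through the controls alone, so their shared direction was set by the filter. The calls of Prl, Gh and Pomc were each lost without either Aptx library. Lhb, on the same list but below the filter, went the other way, at 0.564 and 0.369 FPKM against 0.221 to 0.341. The list summed to 1.885 and 2.195 FPKM in the Aptx mutant and to 10.1 to 155 in the control. Carryover of pituitary tissue was not tested.

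Several genes of brain stem and midbrain neurons were lower. Nts, the neuropeptide neurotensin, stood at 0.215 and 0.054 FPKM against 5.78, 2.89, 7.12 and 2.97 (log2 fold change -2.25, SE 0.34). Tph2, the enzyme that starts serotonin synthesis in the raphe, stood at 0.19 and 0.05 FPKM against 3.42, 1.58, 2.73 and 0.79 (log2 fold change -1.40). The serotonin transporter Slc6a4 was listed at 0 in both Aptx libraries and stood at 0.32 to 1.43 FPKM in the control. Fev, on the same list but below the filter, went the other way, at 0.388 and 0.406 FPKM against at most 0.035. Lhx9, a homeobox factor of diencephalic and brain stem neurons, stood at 0.82 and 0.10 FPKM against 2.58 to 4.86. Of 27 measured members of this list 12 passed the filter, 8 of them through the controls alone, so no count or median over the list is given. Nts, Tph2, Slc6a4 and Lhx9 are among these 8, so their direction was set by the filter. Slc17a6, a vesicular glutamate transporter, passed in both groups, at 8.38 and 3.405 FPKM against 20.7, 12.9, 21.5 and 12.5 (log2 fold change -1.44, SE 0.43, adjusted p = 0.0345). Th and Tac1, which also passed in both groups, lay below every control. Sncg, the last of these 4 members, overlapped the controls, at 4.80 and 4.52 FPKM against 7.77, 3.93, 7.24 and 4.085. Over all measured members the list summed to 20.03 and 10.99 FPKM in the Aptx mutant against 57.5, 37.3, 60.7 and 30.4 in the control, and controls 1 and 3 were highest. The Aptx and control libraries did not overlap. The other mutants ran from 10.4 to 35.3 FPKM, and double mutant 4, the highest, lay above control 4. In bulk samples fewer cells of a type and less RNA per cell cannot be told apart, and the part of dissection in these values was not tested. Cnih3, an auxiliary subunit of AMPA receptors, and Ngef, a guanine nucleotide exchange factor of growing axons, were also among the lowest. Cnih3 stood at 1.29 and 0.43 FPKM against 5.55 to 7.03, and Ngef at 1.65 and 1.07 against 4.84 to 7.84. The remaining genes of the 12 were Zcchc12, a transcriptional coactivator, and Pttg1, which encodes securin. Pttg1 stood at 0.13 and 0.08 FPKM against 5.44, 2.79, 3.16 and 5.76. It passed the filter through the controls alone, so its direction was set by the filter. In the Atm mutant it was 0.27 and 4.88.

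**Figure D2:**
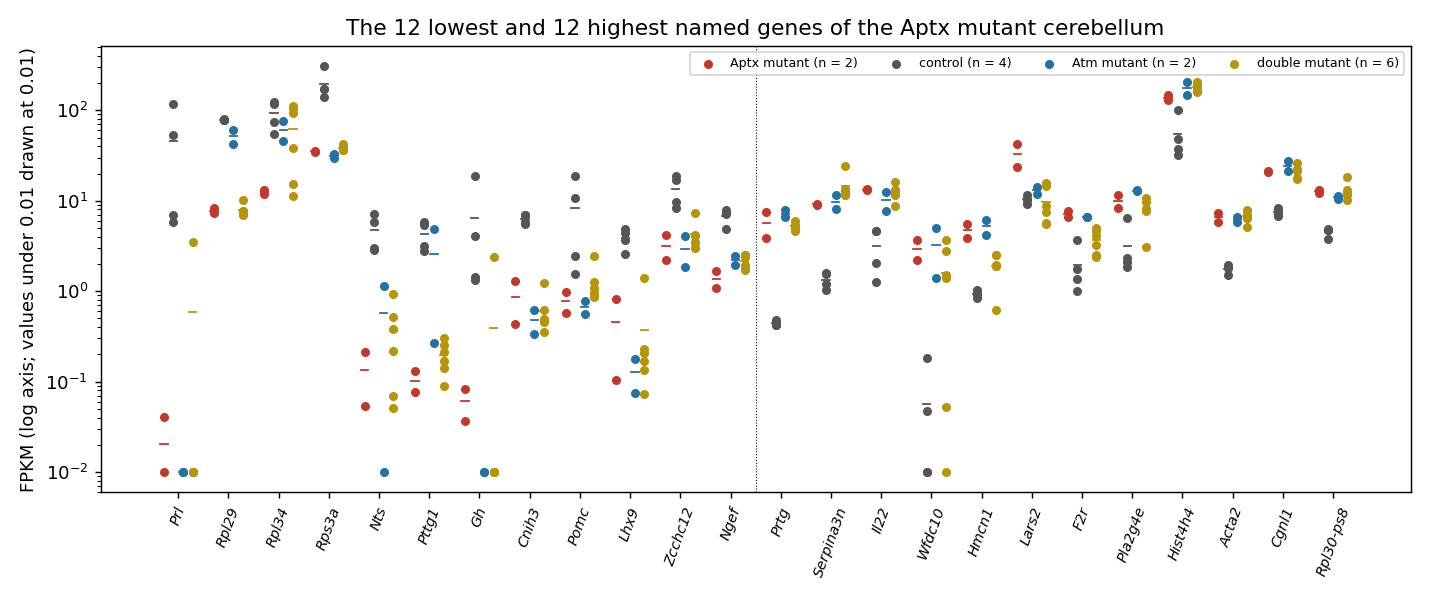
FPKM of the 12 lowest (left of the dotted line) and 12 highest named genes, by group on a logarithmic axis, each point 1 library and each short line the group mean. Both Aptx libraries lie on 1 side of all 4 controls for each gene. For Prl the controls run from 5.82 to 116 FPKM, and for Rpl29 they lie between 77.9 and 80.9.

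Among the 12 highest genes, Serpina3n, a protease inhibitor of reactive astrocytes, stood at 9.08 and 9.24 FPKM in the Aptx mutant against 1.60, 1.19, 1.56 and 1.03 in the control (log2 fold change 2.12, SE 0.23, adjusted p = 5.75e-05). It was 8.11 and 11.496 FPKM in the Atm mutant and 11.7 to 24.4 in the double mutant. Prtg, which encodes protogenin, a membrane protein of the immunoglobulin family, stood at 3.90 and 7.55 FPKM against 0.42 to 0.48. Prtg passed the filter on low values through the Aptx libraries alone, so its direction was set by the filter. Il22, a cytokine gene, stood at 13.1 and 13.5 FPKM against 4.61, 4.61, 1.28 and 2.06. These calls held under every alternative that tested them. The rest were Hmcn1, which encodes the matrix protein hemicentin, Acta2 (smooth muscle actin), Cgnl1 (paracingulin of cell junctions), F2r (a thrombin receptor), Pla2g4e (a phospholipase), Hist4h4 (a histone), Wfdc10, Lars2 and Rpl30-ps8. Acta2 stood at 5.85 and 7.24 FPKM against 1.497 to 1.97. Lars2, the mitochondrial leucyl-tRNA synthetase, stood at 42.3 and 23.9 FPKM against 9.09 to 11.6 in the control, 11.8 and 14.2 in the Atm mutant and 5.49 to 15.5 in the double mutant. It was higher than in the control and than in the double mutant, and both calls were lost without Aptx mutant 1. The call against the double mutant held in 4 of 15 alternatives.

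Gene lists were read beside the shares of all genes called. Of 52 splicing factor genes, 29 were called higher and 0 lower, against 10.7% of all genes higher. The list median was 0.28 against 0.06 for all genes. Luc7l3, an SR-like splicing factor, stood at 80.0 and 77.5 FPKM against 53.6, 51.6, 51.8 and 53.3 (log2 fold change 0.57, SE 0.06, adjusted p = 9.68e-05). Snrpd1, a core protein of spliceosomal particles, stood at 33.6 and 35.5 FPKM against 21.1 to 26.4. Prpf3 and Hnrnpu were also higher. Under quantile normalization or median rescaling 21 were higher and 1 lower. The count higher was 6 without Aptx mutant 1 and 9 without Aptx mutant 2. Against the Atm and double mutants 0 of the 52 were called, with medians of 0.018 and -0.001. The list counts below are also against the control, whose library series differs. Against the Atm mutant 0 members were called of the Purkinje, granule, reactive astrocyte, vessel, repair, oxidative phosphorylation, potassium channel and hereditary ataxia lists. In that comparison 1 gene of the ATF4 list was higher, and 1 ribosomal protein gene higher and 1 lower.

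Of 79 ribosomal protein genes, 18 were called lower and 2 higher, against 5.38% and 10.7% of all genes, with a median of -0.14. Rpl3 stood at 65.3 and 61.5 FPKM against 129, 121, 124 and 118 (log2 fold change -0.95, SE 0.07, adjusted p = 9.94e-07). Rps12 stood at 55.5 and 49.5 FPKM against 76.4 to 88.2. The count was 6 lower without Aptx mutant 1 and 10 without Aptx mutant 2. Many of these genes have processed copies, and their values are uncertain for the reason given for Rps3a. In the oxidative phosphorylation genes, 8 of 76 were lower and 3 higher. Without Aptx mutant 1 it was 1 lower and 1 higher, without Aptx mutant 2 it was 3 lower and 0 higher, and without control 1 it was 5 lower and 1 higher. They included Ndufa2 of complex I lower (58.7 and 59.1 FPKM against 71.3 to 87.6) and Uqcrb of complex III higher (121 and 121 against 77.4 to 83.7). No member of the 13 mitochondrially encoded genes was called by limma.

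Of 27 Purkinje cell markers, 8 were called higher and 0 lower (median 0.24), and of 23 granule neuron markers, 6 were called higher and 0 lower (median 0.24). Calb1, the calcium buffer of Purkinje cells, was 189.6 and 192 FPKM against 125 to 141 (adjusted p = 0.0044). Neurod1, a transcription factor of granule neurons, was 88.7 and 96.7 FPKM against 51.4 to 70.1 (adjusted p = 0.0047). The summed Purkinje markers were 2400.0 FPKM in both Aptx libraries and 1931 to 2280.0 in the controls, with control 2 nearest. The summed granule markers were 1913 and 1928 FPKM against 1402 to 1822, with no overlap. The summed brain stem markers went the other way between the groups, and their part in these sums was not tested. Without Aptx mutant 2, 1 Purkinje and 0 granule markers were called, and without Aptx mutant 1, 4 of each. Without control 1 or control 3, or under median rescaling, 5 Purkinje markers were called.

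**Figure D3:**
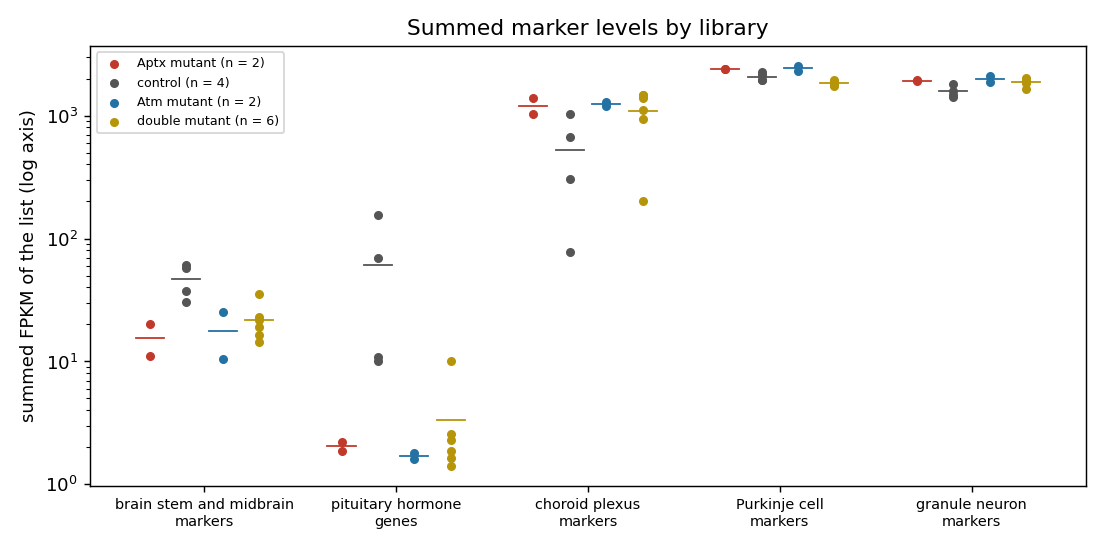
Summed FPKM of 5 marker lists in each cerebellum library on a logarithmic axis, points being libraries and short lines group means. The brain stem and pituitary lists are lower in both Aptx libraries than in any control, and the choroid plexus list spans 77.1 to 1030.0 FPKM over the controls.

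Of 20 vessel genes, 2 passed the filter through the Aptx libraries alone and 1 through the controls alone, so their direction was set by the filter. Among glial and vessel lists, reactive astrocyte genes were called higher in 5 of 10 and vessel genes in 7 of 20, with none called lower. Without Aptx mutant 2, 3 and 1 were called, and without Aptx mutant 1, 3 of each. Vim, vimentin of the intermediate filaments, stood at 51.4 and 50.5 FPKM against 23.6, 36.5, 25.7 and 26.4 (log2 fold change 0.86, adjusted p = 0.0013). Serping1, an inhibitor of complement C1, stood at 11.2 and 9.31 FPKM against 4.30 to 6.27. Gfap, the astrocyte filament gene, was not called against the control (37.0 and 45.0 FPKM against 26.9 to 51.1, adjusted p = 0.515). Of 20 microglia markers, 2 (Fcrls and C1qb) were called lower and 0 higher, and Fcrls passed the filter through the controls alone. The count was 1 without Aptx mutant 1 and 0 without Aptx mutant 2, and the summed list overlapped (109.0 and 99.2 FPKM against 98.4 to 126.0). C1qb stood at 7.38 and 6.55 FPKM against 16.4, 8.98, 13.8 and 16.4. No choroid plexus or blood gene was called by limma, and their summed levels overlapped between the groups (1387 and 1024 FPKM against 77.1 to 1030.0 for choroid plexus). Without control 4, 6 choroid plexus genes were called higher.

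ATF4 targets, which answer amino acid and mitochondrial stress, were higher in 8 of 22 and lower in 1, and higher in 4 and 1 without Aptx mutant 1 and 2. Mthfd2, a mitochondrial folate enzyme, stood at 4.98 and 5.86 FPKM against 1.89 to 2.87 (log2 fold change 0.88, adjusted p = 0.0031). Asns, asparagine synthetase, stood at 42.3 and 43.4 FPKM against 26.2 to 31.0. Single-strand break and base excision repair genes were higher in 7 of 37 and lower in 0, with Lig3 and Parp2 among them. Double-strand break genes were higher in 5 of 21 and lower in 0. Under median rescaling these became 2 higher and 1 lower, and 2 higher and 2 lower. Without either Aptx library 1 and 0 were called. Without controls 1, 3 and 4 in turn, 4, 3 and 3 single-strand break genes and 2, 2 and 3 double-strand break genes were higher. Of 22 p53 targets, 1 was higher and 2 lower. No interferon response gene of 15 was called by limma. Potassium channel genes were lower in 7 of 41 and higher in 2, and lower in 4 without Aptx mutant 2. Among the lower was Kcnab3 at 6.67 and 5.09 FPKM against 9.35 to 15.5. Of the 41 potassium channel genes, 1 passed the filter through the controls alone. These list counts are read against 10.7% higher and 5.38% lower over all genes. Of 43 hereditary ataxia genes, 11 were higher and 1 lower. The higher ones numbered 3 without Aptx mutant 1, 0 without Aptx mutant 2, 5 without control 1 and 6 without control 3. Quantile normalization gave 7 higher and 1 lower, and median rescaling 5 higher and 2 lower.

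**Figure D4:**
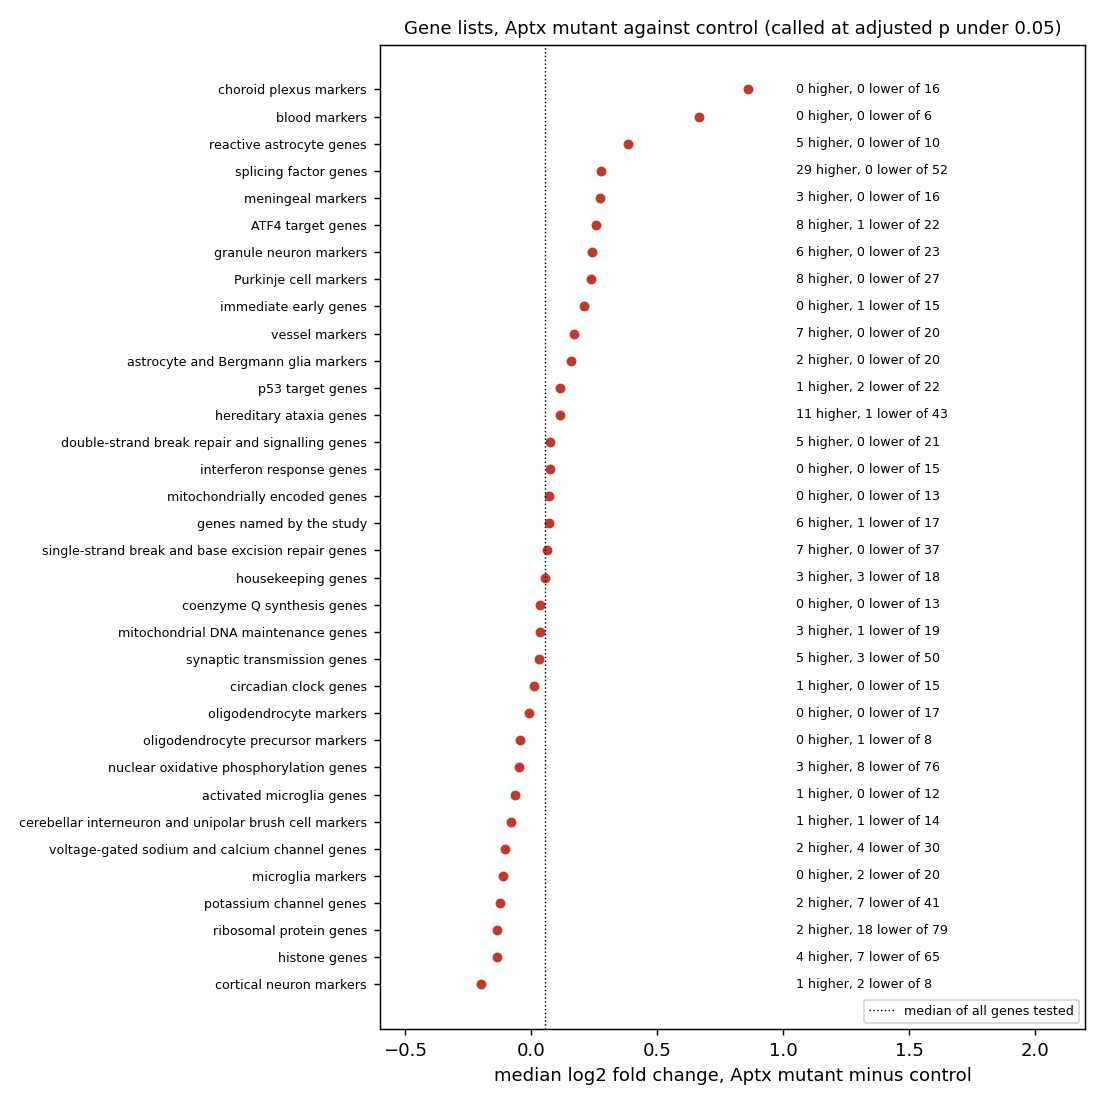
Median log2 fold change (Aptx mutant minus control) of each gene list, with the number of members called at an adjusted p under 0.05 at the right. The dotted line is the median of all genes, 0.06. Lists of which most tested members passed the filter through 1 group alone (pituitary, brain stem and midbrain) are left out. The choroid plexus list lies furthest to the right, at 0.86, with 0 members called by limma.

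Against the Atm mutant, which shares the library series, 21 genes were called (0.162%), 12 higher (0.0924%) and 9 lower (0.0693%) in the Aptx mutant. The number was 5 without Aptx mutant 1, 10 without Aptx mutant 2 and 11 without Atm mutant 1. Of these, 15 were also called against the control and 6 were not. Of the 9 lower genes, 5 lie on chromosome 9, among them Rpl29 and its near-identical copy Gm10709. The share of all tested genes on that chromosome was not counted. The lowest were Rpl29 and models that match it. Rpl29 was 42.0 and 61.3 FPKM in the Atm mutant and 6.99 to 10.1 in the double mutant, so the Aptx and double mutants were low and the Atm mutant lay between them and the control (log2 fold change -2.56, SE 0.16, adjusted p = 1.2e-06). Gm10709 matches Rpl29 at 99.2% and Gm17669 at 98.0%, and both fell with it. Gm10709 stood at 2.25 and 2.24 FPKM against 6.73 and 8.75 in the Atm mutant and 8.21 to 9.74 in the control. A 60-base stretch shows how alike Rpl29 (chr9:106333695-106333754, plus strand) and Gm10709 (chr9:7752122-7752181, plus strand) are, with the 2 bases that differ in capitals.

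Rpl29: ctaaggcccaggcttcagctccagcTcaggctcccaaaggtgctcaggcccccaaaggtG
Gm10709: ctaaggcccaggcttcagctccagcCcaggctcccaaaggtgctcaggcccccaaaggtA

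The copies of Rpl29 too were found only among models past both thresholds. Here, unlike the chosen copies of Gapdh, gene and copies moved the same way. Their sum was 9.97 and 11.3 FPKM in the Aptx mutant, 88.7 to 92.1 in the control, 52.2 and 74.2 in the Atm mutant and 10.3 to 14.7 in the double mutant. A stretch of chromosome 9, 106073260 to 111592852, was drawn around called genes and holds Rpl29 but not Gm10709. In it 4 of 112 tested genes were called against the Atm mutant, among them Rpl29, Mapkapk3 and Tdgf1. The count follows in part from that choice of stretch. Mapkapk3, a kinase activated by p38, stood at 0.485 and 0.751 FPKM against 1.73 and 2.10. Tdgf1, a co-receptor of Nodal, stood at 0.32 and 0.25 FPKM against 1.12 and 1.28. Mapkapk3 and Tdgf1 passed the filter on low values through the controls alone, which favours genes low in the Aptx mutant. Rpl29 and Gm10709 kept their calls under all 12 alternatives.

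On chromosome 12, 5 neighbouring genes were higher in the Aptx mutant than in both the Atm mutant and the control. They lie within 56181483 to 56377912 and are near-identical copies. Srp54a, Srp54b and Srp54c, which encode the protein of the signal recognition particle that binds signal sequences, match at 99.7% to 99.9%, and Fam177a and 1700047I17Rik2 at 100%. Srp54a stood at 41.9 and 40.4 FPKM in the Aptx mutant, 21.1, 17.3, 18.9 and 17.8 in the control and 17.8 and 22.8 in the Atm mutant. Against the Atm mutant its log2 fold change was 0.99 (SE 0.15, adjusted p = 0.0105). Summed over the 3 Srp54 genes the level was 137 and 134 FPKM in the Aptx mutant, 65.1 to 74.1 in the control and 61.9 and 79.4 in the Atm mutant, a ratio of means to the control of 1.94. Fam177a and its copy summed to 26.5 and 24.3 FPKM against 10.22 to 11.48 in the control. In the double mutant, replicates 1, 2 and 5 summed to 102 to 112 FPKM for Srp54 and replicates 3, 4 and 6 to 82.6 to 89.1, with no overlap with the Aptx mutant. Ppp2r3c, the next gene on the chromosome, stood at 8.35 and 9.36 FPKM against 7.26 to 8.37 in the control and was not called. Of the 11 tested genes in and beside this block, a stretch also drawn around called genes, 5 were called against the Atm mutant and 7 against the control. The 7 included 2700097O09Rik, on the other side of the block, at 5.68 and 5.43 FPKM against 3.91 to 4.77 in the control (adjusted p = 0.0269, limma). They also included 1110008L16Rik, just past Ppp2r3c (adjusted p = 0.0485, limma). DNA copy number was not measured.

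**Figure D5:**
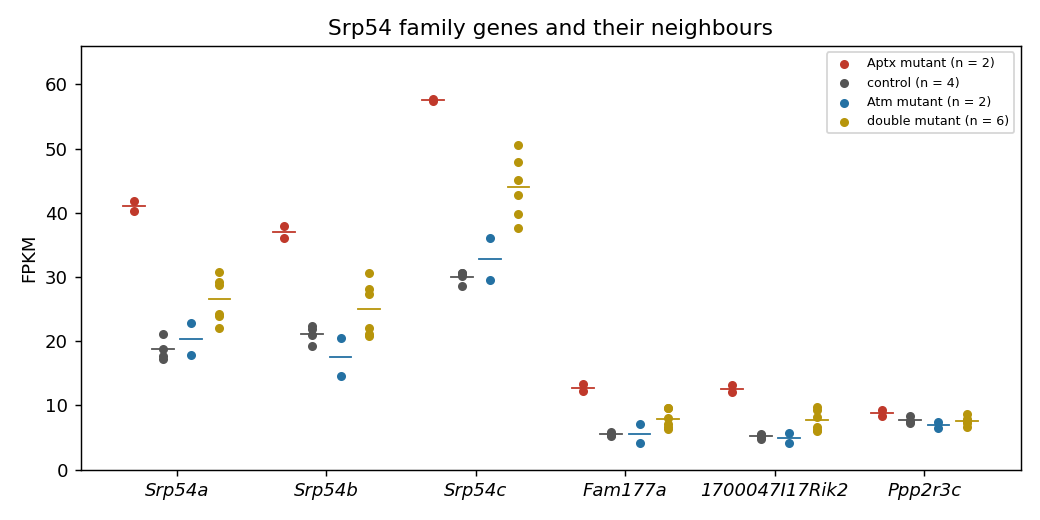
FPKM of the Srp54 genes, Fam177a, its copy and the next gene Ppp2r3c, by group, points being libraries and short lines group means. The Aptx libraries stand at 36.0 to 57.8 FPKM for the Srp54 genes, above every control, and Ppp2r3c is close across groups.

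Other genes of this comparison turned on different groups. Lynx1, a modulator of nicotinic acetylcholine receptors, stood at 38.2 and 35.6 FPKM in the Aptx mutant, 59.8 and 59.0 in the Atm mutant, 57.2 to 67.3 in the control and 31.0 to 40.0 in the double mutant. It was lower in the Aptx mutant against both control (log2 fold change -0.73, SE 0.09) and Atm mutant (-0.67, SE 0.11, adjusted p = 0.0159). Slc7a3, a cationic amino acid transporter, stood at 3.34 and 3.88 FPKM against 0.49 and 0.42 in the Atm mutant and 0.54 to 1.68 in the control, and Bex4 at 20.9 and 21.1 against 13.97 and 11.2. Both lie on the X chromosome. For Cthrc1, Gpr153 and Hes3 the Atm mutant stood apart, and the Aptx mutant was not called against the control. Cthrc1, a secreted collagen-related protein, stood at 2.77 and 2.32 FPKM in the Aptx mutant, 2.72 to 3.40 in the control and 0.71 and 0.44 in the Atm mutant. Gpr153 and Hes3 are neighbours on chromosome 4.

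Against the double mutant 18 genes were called (0.139%), 8 higher (0.0616%) and 10 lower (0.077%) in the Aptx mutant. The number was 4 without Aptx mutant 1, 2 without Aptx mutant 2 and 42 without double mutant 4. Itpr1, the receptor that releases calcium from the endoplasmic reticulum of Purkinje cells, stood at 308 and 293 FPKM in the Aptx mutant, 232 to 348 in the control and 33.6 to 48.1 in the double mutant. It was 2.88 higher on the log2 scale than in the double mutant (SE 0.14, adjusted p = 3.07e-08) and was not called against the control (0.10, SE 0.14, adjusted p = 0.694). Car8, a Purkinje cell protein that binds that receptor, stood at 262 and 309.5 FPKM against 137 to 164, above the control as well (171 to 229.6). Gfap was lower than in the double mutant (37.0 and 45.0 FPKM against 78.8 to 97.7), as were Th, which encodes tyrosine hydroxylase, and Hrk, a pro-death member of the Bcl2 family. Hrk stood at 0.721 and 1.002 FPKM against 2.37 to 5.41. Only Itpr1 kept its call under all 15 alternatives. Igfbp5, which binds insulin-like growth factors, and Fam40b were the other genes among the 5 highest, and Pdlim1 and Ifitm1 among the 5 lowest.

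In the Aptx mutant 10.7% of all genes were called higher than in the control and 5.38% lower. Among the 17 genes that the study names, 6 were called higher and 1, Lynx1, lower. The higher ones numbered 2 without Aptx mutant 1, 0 without Aptx mutant 2, 3 without control 1 or control 3 and 3 under median rescaling. Aqr, an RNA helicase of the spliceosome, stood at 15.2 and 15.3 FPKM against 10.97 to 12.4. Car8, Chn2, Cacnb4 and Slc1a3 were also called higher. The study chose these genes on its own samples, so their count is not independent evidence. Atm itself stood at 8.69 and 9.11 FPKM against 6.75 to 7.13 (log2 fold change 0.32, adjusted p = 0.0127, limma). When the Aptx mutant was set against the Atm mutant, 0 of the 17 genes were called higher and 1, Lynx1, lower.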

How the data were processed

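Stranded total RNA libraries from cerebellum were sequenced by the study after ribosomal RNA was removed. Per the labels and methods, BWA 0.5.10 mapped the reads to mouse build mm9 and HTSeq (version not given in the sources used here) counted them. The authors deposited FPKM for 22562 genes in 14 cerebellum libraries. No counts were used here, depth is thus not known and counting error could not be given. In the 4 controls and double mutant 6 at least 98.5% of values above 0 held more than 10 digits, against at most 0.0448% elsewhere, so these 5 columns were written differently, in a way the sources do not state. Genes under 0.2 FPKM were also compared with Aptx mutant 1. The share at the commonest ratio was 16.1% to 21.2% in the other mutant columns, 3.71% to 4.9% in the controls and 0.22% in double mutant 6. Whether these 5 columns were also computed in another way was not tested.

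Genes that reached 1 FPKM in 2 or more of the 6 Aptx mutant and control libraries (12982) were fitted on log2(FPKM + 1), a scale that understates changes of low genes, with the 14 libraries in 4 genotype groups (limma 3.58.1, R 4.3.3, trended empirical Bayes, two-sided, Benjamini-Hochberg over all genes). The fit was tested on simulated data. Genes with an adjusted p under 0.05 are named called. An exact permutation test over 2 and 4 libraries has 15 arrangements and cannot reach 0.05, so sums are given as values. Alternatives were another pseudocount, other filters, quantile and median scaling, fewer libraries, Ddx3y as a covariate, the replicate number as a block and each library left out. The gene list counts with libraries left out or with the covariate were added after seeing the data.

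The gene lists, their members and the rules for named genes were chosen with earlier results of these data known. Named genes were Aptx and its neighbours, the 12 lowest and 12 highest fold changes past both thresholds with groups apart, those called against the other mutants, up to 4 of each list by p, and genes the study names. Uncharacterised symbols were passed over in the ranking (3 among the lowest, 22 among the highest) and described as a class. Gapdh, Gm9000, Gm10800, Gm12033, Gm10106, Gm10801, Gm10720, Slc17a6, Tac1, Sncg, Ppp2r3c, 2700097O09Rik and 1110008L16Rik were chosen after their values were seen. The stretches of chromosomes 9 and 12 were drawn around called genes. Positions and sequence came from NCBIM37 (mm9) with GENCODE M1. Models were matched to named genes with BLAST 2.17.0 (identity of at least 90% over at least 60% of the model). Some genes that the rule names are not reported here.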

Additional observations from a re-analysis of the deposited data

Results flagged for a closer look

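Each of the 21 genes called between the Aptx and Atm mutants differed in its effect against the shared controls, since that test is the difference of the 2 effects. The log2 values, Aptx minus Atm, included Rpl29 -2.56, Gm17669 -1.63, Gm10709 -1.42, Gm5506 -0.85, Mapkapk3 -0.85, Tdgf1 -0.78, Lynx1 -0.67 and Ankrd37 -0.56 among those lower in the Aptx mutant. Those higher were Slc7a3 1.66, Gpr153 1.30, 1700047I17Rik2 1.20, Hes3 1.18, Cthrc1 1.18, Fam177a 1.09, Srp54b 1.054, Srp54a 0.99, Unc13b 0.80, Srp54c 0.80, Bex4 0.71 and Rpl30 0.61.

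Among 53 named genes, 4 had 1 control library far from the other 3, where chance flags about 1 in 20. These were Gh in control 4 (18.7 FPKM), Pla2g4e in control 3 (6.398 FPKM), Rpl30-ps8 in control 2 (3.76 FPKM) and Hes3 in control 2 (9.44 FPKM).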

How the results depend on the processing

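The number of genes called against the control was 1227 with the 6 libraries alone, 1364 with the Ddx3y covariate and 470 to 2046 with 1 library left out. Genes also past 2-fold numbered 312 with a pseudocount of 0.1, 79 with an FPKM of at least 5, and 89 to 177 with 1 library left out. Against the Atm mutant the calls numbered 13 with an FPKM of at least 5 (6 past 2-fold), 9 with the Ddx3y covariate and 5 to 23 with 1 library left out (5 to 12 past 2-fold). Against the double mutant they numbered 9 with no filter (3 past 2-fold), 10 with an FPKM of at least 5 (2 past 2-fold) and 2 to 42 with 1 library left out (2 to 7 past 2-fold), the highest without double mutant replicate 4. The cause was not tested. Same-numbered Aptx mutant and control libraries deviated from their group means with correlations of 0.015 and -0.025. The deviations of the 2 Aptx libraries mirror each other, so these values cannot settle whether the replicate number was a pairing. With the replicate number as a block, 1686 genes were called against the control, 14 against the Atm mutant and 2 against the double mutant (1 past 2-fold). Eef1a1 changed sign under quantile normalization (-0.043, not called). The median of the housekeeping list relative to all genes was -0.061 there. Of the named genes called, 55 of 139 against the control, 5 of 21 against the Atm mutant and 1 of 18 against the double mutant kept the call under every alternative that tested them.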
